A study of Mus musculus with 9 samples.

Results

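Transcripts of 7 genes through which the liver takes up remnant lipoproteins were followed in mouse liver under an antisense oligonucleotide (ASO) against apoC-III. They were picked by gene symbol from the 51912 genes of the deposited table, as receptors of remnant uptake and their direct regulators: *Lrp1*, *Vldlr*, *Scarb1*, *Sdc1*, *Lsr*, *Sort1* and *Lrpap1*. All 7 were found, and 6 of them passed the filter on low values that left 11976 genes in the test. *Vldlr* was too low for that filter.

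The study asked where lowering apoC-III acts on triglyceride-rich lipoproteins (TRLs) when apoE is absent. RNA of livers from 9 fasted mice was sequenced, 5 given the apoC-III ASO and 4 the control ASO, each by weekly injection at 50 mg/kg/week for 8 weeks. All 9 mice were *Apoe*-/-*Ndst1* f/f *Alb-Cre*+ on a C57Bl/6 background, so both groups lacked apoE in the whole body and the heparan sulfate sulfotransferase NDST1 in hepatocytes, where the *Alb* promoter drives the Cre recombinase. No mouse with either gene intact was sequenced, and their diet, age and sex are not given in the sources used here for the sequencing.

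Remnants of TRLs leave the blood in liver by receptor-mediated endocytosis. LRP1 is a large endocytic receptor of the low-density lipoprotein receptor family that binds apoE on remnants, while syndecan-1, the product of *Sdc1*, holds remnants through its heparan sulfate chains, which NDST1 helps to sulfate. In these mice the ligand apoE was missing and the chains of syndecan-1 in hepatocytes were made without NDST1, and the transcripts below are those of the receptors and core proteins themselves.

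Levels are given as rescaled TPM. TPM divides reads by gene length and by the library's total, so levels can be set side by side between genes. Here nuclear protein-coding genes were set to a total of 1000000 in each liver, and median-of-ratios factors were applied, which bring the typical gene of the livers to a common level. The rescaling was needed because nuclear protein-coding genes held 3.03% to 5.31% of the deposited TPM under the apoC-III ASO and 1.94% to 8.64% under the control ASO. Control ASO replicate 4 had the lowest share (1.94%) and the lowest factor (0.490), and 1 TPM stood for 105 rescaled TPM there against 12.6 to 35.1 in the other 8 livers. TPM keeps no depth, so the depth of each library is unknown and no counting error is given. Each liver had 17992 to 20928 genes above 0. The transcript that the ASO targets, *Apoc3*, was at 338 to 630 rescaled TPM with the apoC-III ASO and at 3208 to 4345 with the control ASO. In TPM as deposited its mean was 86.5% lower (p = 0.0159 in an exact permutation test, two-sided, which is the smallest value these group sizes allow).

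Across the 9 livers the members fell into a high, a middle and a low tier. *Lrp1* was the highest, with a mean of 279 rescaled TPM, above 97.4% of the genes tested. *Scarb1* (110.5 rescaled TPM) and *Sdc1* (99.2 rescaled TPM) followed, above 93.0% and 92.0% of genes. *Lsr* at 29.0 rescaled TPM and *Lrpap1* at 17.8 formed the middle tier, above 72.6% and 60.5% of genes. *Sort1*, at 2.35 rescaled TPM, lay above 13.2% of genes, and *Vldlr* at 0.975 lay under the minimum mean of 1.

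Most of this order held inside each liver. *Lrp1* exceeded *Scarb1* in 9 of 9 livers, by 1.81 to 6.94 times. *Lsr* exceeded *Lrpap1* in 9 of 9 livers, by 1.11 to 3.04 times. *Scarb1* and *Sdc1* could not be ranked, since *Scarb1* was the higher of the pair in 5 of 9 livers. *Sort1* was above *Vldlr* in 8 of 9, with control ASO replicate 4 the exception.

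**Figure D1:**
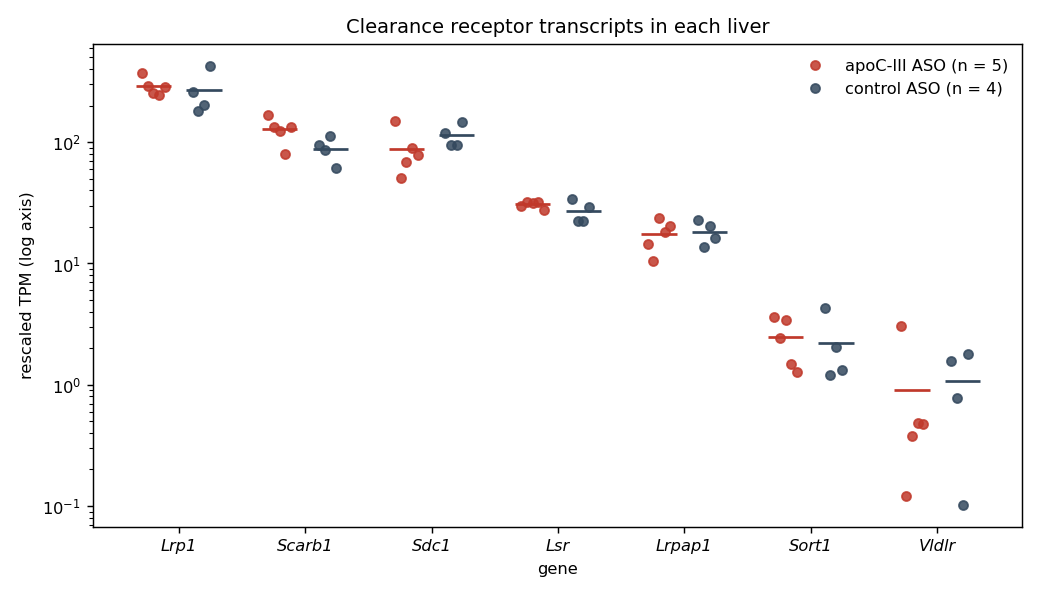
Level of each clearance receptor transcript in each liver, in rescaled TPM on a log axis, with 1 point per liver and a bar at the group mean (apoC-III ASO, n = 5; control ASO, n = 4). The groups overlap for every gene, and *Vldlr* spans the widest range, from 0.102 to 3.05 rescaled TPM.

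Between groups, no member passed the test. Calls were made in limma's trend method, at an adjusted p (Benjamini-Hochberg) under 0.05 together with more than a 1.5-fold difference, on log2(rescaled TPM + 1), a scale that understates the change of low genes. Of the 6 members tested, 4 were higher and 2 lower under the apoC-III ASO, with a median log2 fold change of 0.16, and limma called 0 of them, with 0 at an unadjusted p under 0.05. An exact permutation test per gene could call none here, since its smallest p of 0.0159 came to 0.868 after adjustment. Over all 11976 genes the median was -0.00128, 5970 genes were higher and 6006 lower, 0.0167% were called in limma (2 genes, *Apoc3* and *Anpep*, both lower) and 5.56% had an unadjusted p under 0.05. No member had groups without overlap. Among all genes, 0.919% had every apoC-III ASO liver above every control and 0.91% every apoC-III ASO liver below. In bulk tissue, fewer cells of a type and less RNA per cell cannot be told apart.

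**Figure D2:**
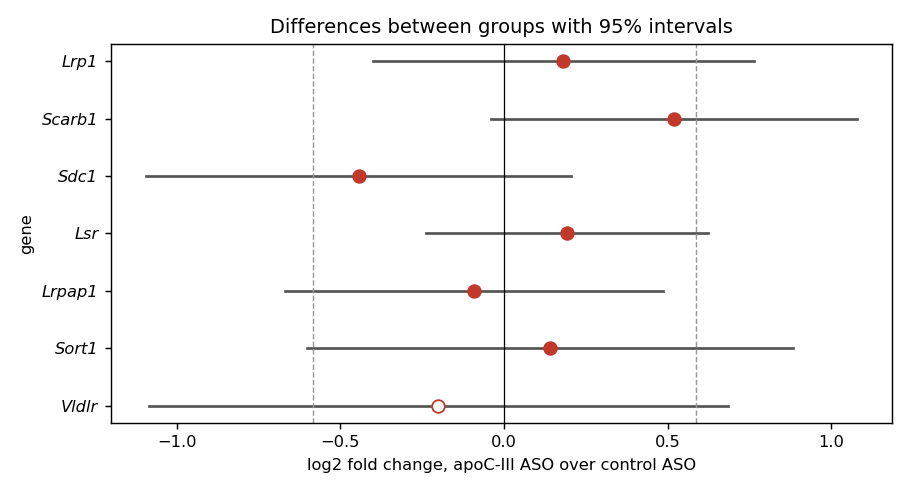
Log2 fold change of each member, apoC-III ASO over control ASO, with its 95% interval from limma; dashed lines mark a 1.5-fold change, and the open circle is *Vldlr*, fitted without the filter on low values. Every interval includes 0, and the values run from -0.44 for *Sdc1* to 0.52 for *Scarb1*.

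Among the endocytic receptors, *Lrp1* (ENSMUSG00000040249, chr10:127538161-127621148 of GRCm38, minus strand) was at 370, 291, 254, 247 and 283 rescaled TPM in apoC-III ASO replicates 1 to 5. The 4 control ASO livers had 259, 182, 201 and 425. The control group held both the lowest and the highest liver, so the treated values lay wholly inside its range. The mean level was 289 ± 49.0 rescaled TPM (SD, n = 5) with the apoC-III ASO and 267 ± 111 (SD, n = 4) with the control ASO. The log2 fold change was 0.18 (SE 0.27, limma adjusted p = 0.965), a 1.13-fold difference whose 95% interval ran from 0.758-fold to 1.70-fold. The highest control was replicate 4, the library that stood apart above. Without it the log2 fold change of *Lrp1* was 0.43 (unadjusted p = 0.0739 in limma), over 1.5 times the value with all livers. The value was 0.0255, 0.0735 and 0.0885 without control ASO replicate 2, control ASO replicate 3 and apoC-III ASO replicate 1. After rescaling without the median-of-ratios factors it was 0.66 (unadjusted p = 0.0362, adjusted p = 0.450 in limma). Under that scaling the median gene stood at 0.41. An unadjusted p under 0.05 occurred in 1 of 23 alternatives.

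*Vldlr* (ENSMUSG00000024924, chr19:27216484-27254231, plus strand) encodes the VLDL receptor, an LRP1 relative known mainly from muscle, heart and adipose tissue. Its levels were 3.05, 0.122, 0.380, 0.486 and 0.475 rescaled TPM in apoC-III ASO replicates 1 to 5 and 1.58, 0.779, 0.102 and 1.80 in control ASO replicates 1 to 4. A single treated liver, replicate 1, was above all controls, while the other 4 lay within the control range. The means were 0.902 ± 1.21 rescaled TPM (SD, n = 5) and 1.07 ± 0.778 (SD, n = 4). Fitted without the filter on low values, its log2 fold change was -0.20 (SE 0.40, limma adjusted p = 0.953). In the 5 fits with 1 liver left out in which it passed the filter, the value ran from -0.47 without control ASO replicate 3 to -0.053 without apoC-III ASO replicate 2. The highest liver was 29.8 times the lowest. On the deposited scale these values were between 0.00533 and 0.216 TPM.

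Of the adipocyte transcripts, *Adipoq* and *Lep* were listed at 0 in all 9 livers. *Plin1* reached 1.60 and *Cfd* 1.33 rescaled TPM, within the range of *Vldlr* itself, and the part of adipocytes in its level was not tested. The 4 adipocyte markers summed to at most 1.60 rescaled TPM in any liver.

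*Scarb1* (ENSMUSG00000037936, chr5:125277087-125341094, minus strand) encodes SR-BI, the scavenger receptor that takes cholesteryl esters selectively from HDL and can also bind remnants. It had the largest difference of the 6 members tested. Levels were 168, 134, 124, 80.5 and 133 rescaled TPM in apoC-III ASO replicates 1 to 5, against 95.1, 86.5, 111 and 61.3 in control ASO replicates 1 to 4. All treated livers except replicate 4 were above every control, and replicate 4 was above the lowest control only. At least 4 of 5 treated livers above every control was a pattern shared by 4.37% of the genes tested. The means were 128 ± 31.4 rescaled TPM (SD, n = 5) and 88.6 ± 20.9 (SD, n = 4). The log2 fold change was 0.52 (SE 0.26, unadjusted p = 0.0654, adjusted p = 0.882 in limma), a 1.43-fold difference with a 95% interval of 0.973-fold to 2.11-fold. It stayed positive in all 23 alternatives, from 0.36 to 0.99, and had an unadjusted p under 0.05 in 4 of them. The 0.36 was the value without control ASO replicate 4, the lowest liver (unadjusted p = 0.183 in limma). The 0.99 came without the median-of-ratios factors, under which the median gene stood at 0.41. The lowest p, 0.0152 in limma, came without apoC-III ASO replicate 4, the treated liver that lay among the controls, and its adjusted p was then 0.640.

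*Sdc1* (ENSMUSG00000020592, chr12:8771323-8793715, plus strand), the core protein of the main remnant-binding proteoglycan of hepatocytes, differed in the other direction. Control ASO livers had 118, 95.1, 94.8 and 147 rescaled TPM. Apart from replicate 1, at 151, the apoC-III ASO livers had 50.9, 68.5, 90.1 and 78.0. Thus 4 of 5 treated livers were below every control and the remaining liver was above every control. At least 4 of 5 treated livers below every control occurred in 4.43% of the genes tested. The mean level was 87.6 ± 38.0 rescaled TPM (SD, n = 5) against 114 ± 24.7 (SD, n = 4). The log2 fold change was -0.44 (SE 0.30, limma adjusted p = 0.901), a 0.735-fold level with a 95% interval of 0.469-fold to 1.15-fold. With 1 liver left out it ran from -0.66 without apoC-III ASO replicate 1 (unadjusted p = 0.0239, adjusted p = 0.906 in limma) to -0.27 without apoC-III ASO replicate 2 (unadjusted p = 0.356 in limma). With the protein-coding rescaling but no median-of-ratios factors, under which the median gene stood at 0.41, it was 0.0310.

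Set against the other 6 genes, *Sdc1* took a smaller share of the receptor transcripts in treated livers. A share of the summed TPM of the 7 genes does not depend on the scaling of a liver. It does fall where another gene of that sum is higher. *Sdc1* made up 20.3%, 9.76%, 13.5%, 19.2% and 14.4% of that sum in apoC-III ASO replicates 1 to 5 and 22.0%, 23.7%, 20.9% and 21.6% in control ASO replicates 1 to 4. The shares did not overlap, although apoC-III ASO replicate 1 came within 1 percentage point of the lowest control. The mean share was 15.4% ± 4.33 (SD, n = 5) against 22.1% ± 1.16 (SD, n = 4). Divided by the same sum, 1.25% of the genes tested were lower in every treated liver than in every control. This measure was singled out after its values were seen, so no test is given.

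**Figure D3:**
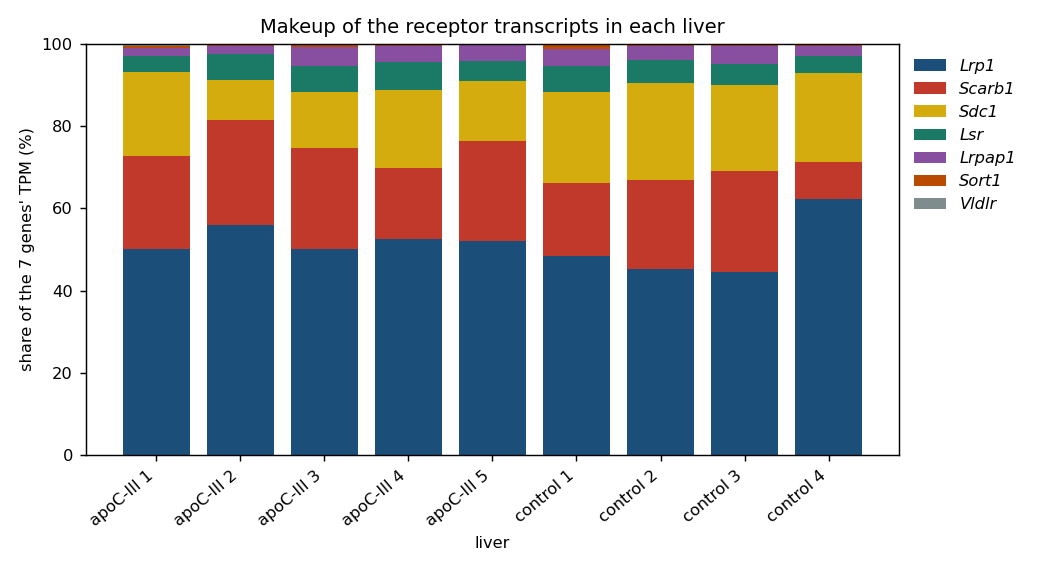
Makeup of the receptor transcripts in each liver, as the percent of the summed TPM of the 7 genes that each gene takes, stacked to 100%. *Lrp1* takes 44.5% to 62.3% in every liver, and *Sdc1* takes 9.76% to 20.3% in the apoC-III ASO livers and 20.9% to 23.7% in the control ASO livers.

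The other shares overlapped between groups. *Lrp1* made up 52.2% ± 2.36 (SD, n = 5) of the sum with the apoC-III ASO and 50.1% ± 8.31 (SD, n = 4) with the control ASO. *Scarb1* made up 22.9% ± 3.41 (SD, n = 5) and 18.2% ± 6.77 (SD, n = 4), where control ASO replicate 4 was lowest at 8.99%. The summed level of all 7 was 556 ± 106 rescaled TPM (SD, n = 5) and 518 ± 122 (SD, n = 4). The ratio of *Scarb1* to *Sdc1*, a pair taken after their differences were seen, was within each liver 1.12, 2.64, 1.82, 0.894 and 1.70 in apoC-III ASO replicates 1 to 5 and 0.806, 0.910, 1.18 and 0.417 in control ASO replicates 1 to 4. Treated replicates 1 and 4 lay inside the range of the controls, and the ratio restates the differences by which the pair was taken.

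*Lsr* (ENSMUSG00000001247, chr7:30957770-30973464, minus strand) encodes the lipolysis-stimulated lipoprotein receptor, which binds apoB- and apoE-containing particles in the presence of fatty acids and also sits at tricellular junctions. Its levels were 30.0, 32.0, 31.6, 32.2 and 27.5 rescaled TPM in apoC-III ASO livers and 34.0, 22.6, 22.4 and 29.1 in control ASO livers. The treated livers lay close together inside the control range. The means were 30.6 ± 1.97 rescaled TPM (SD, n = 5) and 27.0 ± 5.59 (SD, n = 4), with 0.19 as log2 fold change (SE 0.20, limma adjusted p = 0.942). The 95% interval of 0.849-fold to 1.54-fold was the narrowest of the 6 members. The log2 value was 0.31 without control ASO replicate 1, 0.12 without control ASO replicate 2 and 0.11 without control ASO replicate 3. Its within-group SD on the log2 scale was 0.20, and 4.21% of 3707 genes within 2-fold of its level had a smaller one. That SD differed by setting, at 0.38 after rescaling without the factors, 0.11 in TPM with median-of-ratios factors and 0.48 in TPM as deposited. *Lsr* lay at 0.277 to 2.70 TPM as deposited, a range where the 1 added before the log weighs more. What made the SD differ between settings was not tested. A pair of genes annotated on the opposite strand within *Lsr*, *Gm17077* and *Gm4673*, had means of 0.303 and 0.170 TPM, against 1.52 TPM for *Lsr*, and whether the quantification used strand is not given in the sources used here.

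*Sort1* (ENSMUSG00000068747, chr3:108284082-108361511, plus strand) encodes sortilin, a sorting receptor that carries cargo between the Golgi, the cell surface and endosomes and affects the secretion and uptake of apoB particles. It was low, at 3.63, 2.45, 3.43, 1.49 and 1.28 rescaled TPM in apoC-III ASO replicates 1 to 5 and 4.30, 1.21, 2.03 and 1.32 in control ASO replicates 1 to 4. Both groups held livers near 1 and livers above 2, and each treated liver lay inside the control range. The means were 2.46 ± 1.08 rescaled TPM (SD, n = 5) and 2.22 ± 1.44 (SD, n = 4), with 0.14 as log2 fold change (SE 0.34, limma adjusted p = 0.987). It was -0.00986 without control ASO replicate 2 and 0.41 without control ASO replicate 1. It was 0.0195, 0.0355, 0.24 and 0.27 without apoC-III ASO replicates 1, 3, 4 and 5, and 0.0139 without control ASO replicate 4. On the same strand inside *Sort1* an unconfirmed transcript, *Gm43099*, had a mean of 0.0948 TPM against 0.136 TPM for *Sort1*, so reads could be divided between them and the value is uncertain.

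*Lrpap1* (ENSMUSG00000029103, chr5:35091501-35105766, minus strand) encodes RAP, the chaperone that keeps LRP1 and its relatives from binding ligands before they reach the cell surface. It was at 14.4, 10.5, 23.8, 18.1 and 20.3 rescaled TPM in apoC-III ASO replicates 1 to 5 and at 23.0, 13.7, 20.3 and 16.3 in control ASO replicates 1 to 4. Of the treated livers, 1 was above and 1 below every control. The means were 17.4 ± 5.14 rescaled TPM (SD, n = 5) and 18.3 ± 4.14 (SD, n = 4). The log2 fold change was -0.093 (SE 0.26, limma adjusted p = 0.990), with a 95% interval of 0.628-fold to 1.40-fold. Its sign turned when apoC-III ASO replicate 2 (0.0645) or control ASO replicate 1 (0.0204) was left out. *Lrp1* exceeded its chaperone in every liver, by 10.7 to 27.7 times under the apoC-III ASO and 9.92 to 26.1 times under the control ASO.

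Some livers were extreme for several members. Within its group, apoC-III ASO replicate 1 was the highest liver for 5 of the 7 (*Lrp1*, *Vldlr*, *Scarb1*, *Sdc1* and *Sort1*). In TPM as deposited, control ASO replicate 4 was the lowest of all 9 livers for 6 of the 7, but after rescaling it was the highest control for *Lrp1*, *Vldlr* and *Sdc1* and the lowest for *Scarb1*. *Lrp1* was at 15.6 ± 7.17 TPM (SD, n = 5) and 11.6 ± 6.80 TPM (SD, n = 4), and *Scarb1* at 6.88 ± 3.45 and 4.83 ± 2.98 TPM. *Sdc1* was at 4.81 ± 3.40 and 5.40 ± 3.28 TPM, with a log2 fold change of -0.12 (unadjusted p = 0.816 in limma).

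**Figure D4:**
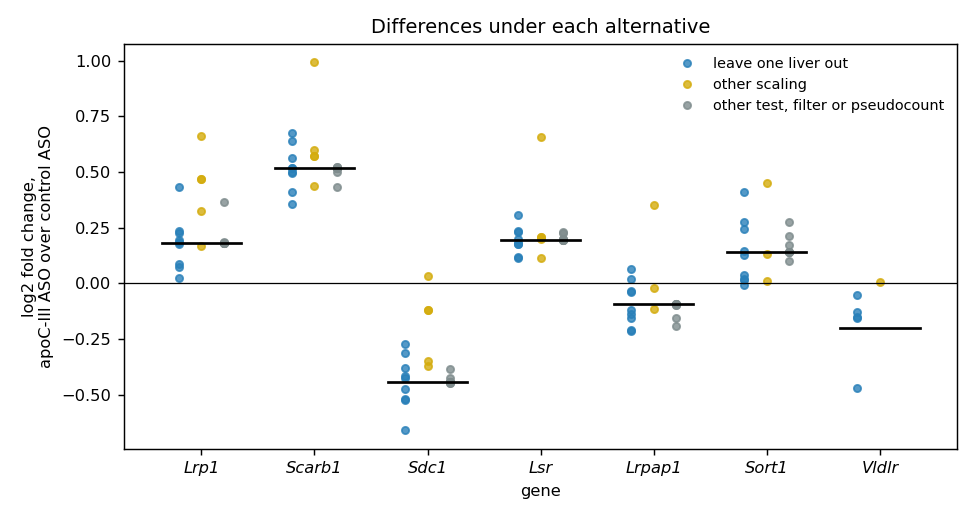
Log2 fold change of each member, apoC-III ASO over control ASO, under each alternative: 1 liver left out, another scaling, or another test, filter or pseudocount; black bars mark the value as reported. *Scarb1* stays above 0 throughout (0.36 to 0.99), while *Sdc1* lies below 0 in all but 1 setting (-0.66 to 0.0310).

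Pairs of members differed widely in how closely they followed each other from liver to liver. Over the 9 livers, as a description without a test, the correlation of log2 levels was highest for *Sdc1* and *Vldlr* (Pearson r = 0.86) and next for *Lrp1* and *Vldlr* (0.61). The lowest were those of *Scarb1* with *Sdc1* (-0.32) and of *Lrp1* with *Lrpap1* (-0.19). *Vldlr* lay under the filter on low values, and its highest liver, apoC-III ASO replicate 1, was also the highest for *Sdc1*. The correlated points share libraries and scaling. The genes most like the members by that measure were *Sema3c* and *Apbb2* for *Lrp1* (0.96 and 0.93), *Ssbp3* and *Echdc1* for *Vldlr* (0.93 and 0.92), *Isg15* and *Zg16* for *Scarb1* (0.96 and 0.96), and *Ndufc2* and *Apoa1* for *Sdc1* (0.95 and 0.94). They were *Rp2* and *Prkaa1* for *Lsr* (0.90 and 0.89) and *Rnf111* and *Plxna2* for *Sort1* (0.94 and 0.94). They were searched for among 11976 genes.

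Genes for proteins that fold, sort and anchor these receptors came next, with none called in limma. All 16 listed genes for adaptors, retromer and COMMD subunits and chaperones were tested, 6 higher and 10 lower under the apoC-III ASO with a median log2 fold change of -0.067, and limma called 0 and put 1 at an unadjusted p under 0.05. That gene was *Slc9a3r1*, which encodes the PDZ scaffold NHERF1. It was at 27.0, 23.0, 21.7, 54.6 and 32.7 rescaled TPM in apoC-III ASO replicates 1 to 5 and at 55.0, 52.7, 36.1 and 47.5 in control ASO replicates 1 to 4. All treated livers except replicate 4 were below every control, which 4.43% of genes matched. Its log2 fold change was -0.64 (SE 0.28, unadjusted p = 0.0419, adjusted p = 0.878 in limma). The unadjusted p was under 0.05 in 11 of 23 alternatives. It was not in TPM as deposited, where the value was -0.30, nor without the median-of-ratios factors, where it was -0.17. Without control ASO replicate 4, limma put 0 of the 16 under 0.05. *Pdzk1*, the related scaffold that holds SR-BI at the hepatocyte surface and which was chosen after its values were seen, was at 35.5 ± 14.1 (SD, n = 5) and 46.1 ± 17.6 rescaled TPM (SD, n = 4), with overlapping groups and a log2 fold change of -0.40 (SE 0.33).

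Relatives of the receptors numbered 17, of which 12 passed the filter. Of these 3 were higher and 9 lower, with a median log2 fold change of -0.12, and limma called 0 and put 0 at an unadjusted p under 0.05. In both of the largest differences a single liver stood far from its group. *Sorl1*, a sortilin relative, was at 114 rescaled TPM in control ASO replicate 4 and 26.1 in apoC-III ASO replicate 2, and at or below 2.63 in the other 7 livers. Its log2 fold change was -1.15 (SE 1.24, limma adjusted p = 0.948) and 0.27 without control ASO replicate 4. *Lrp8*, the apoE receptor 2 gene, was at 9.93 rescaled TPM in the same control and at or below 1.45 in the others, and its log2 fold change was -0.70 (SE 0.57, limma adjusted p = 0.918). Without that control, 10 relatives passed the filter, *Lrp8* no longer among them, and the list's median was -0.057. Among the other syndecans, *Sdc4* was at 350.3 ± 23.7 rescaled TPM (SD, n = 5) and 326 ± 37.4 (SD, n = 4), above *Sdc1*, and *Sdc2* at 98.4 ± 11.3 and 117 ± 28.2.

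Enzymes that cut these receptors or edit heparan sulfate gave 11 tested genes of 12, 6 higher and 5 lower, with a median log2 fold change of 0.062 and, in limma, 0 called and 0 at an unadjusted p under 0.05. *Psen2*, a catalytic subunit of γ-secretase, which cleaves the membrane stub of LRP1, had the largest difference. It was at 140, 145, 198, 79.5 and 154 rescaled TPM in apoC-III ASO replicates 1 to 5 and at 113, 86.1, 110.1 and 72.0 in control ASO replicates 1 to 4. As with *Scarb1*, all treated livers but replicate 4 were above every control (4.37% of genes). The log2 fold change was 0.55 (SE 0.27, limma adjusted p = 0.882). *Mmp14*, a membrane protease able to shed LRP1, followed at 0.48 (SE 0.31, adjusted p = 0.901 in limma), with apoC-III ASO replicate 1 at 9.70 rescaled TPM and the other treated livers at 3.84 to 4.27. The *Mmp14* value was 0.26 without that liver and 0.29 without control ASO replicate 4, the control whose removal also turned the list's median to -0.041.

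**Figure D5:**
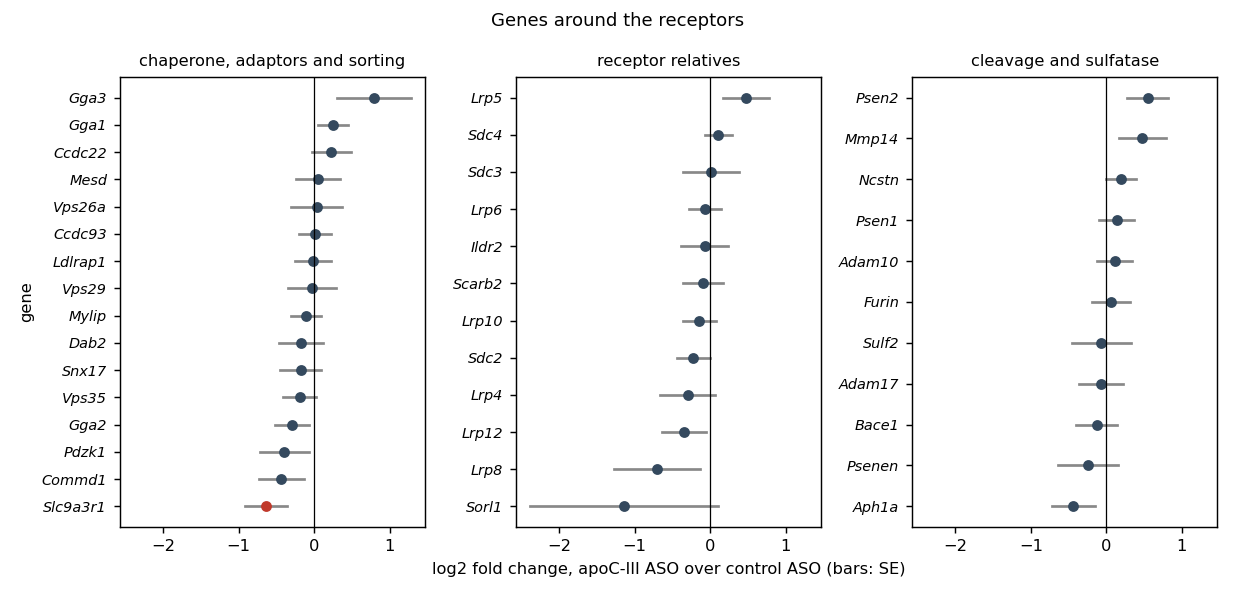
Log2 fold change, apoC-III ASO over control ASO, of the genes around the receptors in 3 panels, with bars of 1 SE from limma; red marks an unadjusted p under 0.05. A single gene, *Slc9a3r1* at -0.64, is red, and the widest bar belongs to *Sorl1* (-1.15, SE 1.24).

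Hepatocyte markers were high in every library, as the label liver says, and the 6 of them summed to 20220 to 47751 rescaled TPM under the apoC-III ASO and 27021 to 40433 under the control ASO. Kupffer cell markers summed to 66.4 to 102 and 63.3 to 114, and those of sinusoidal endothelium to 89.0 to 135 and 80.4 to 123, each with overlap. Of the hepatocyte markers, 2 were higher and 4 lower with a median log2 fold change of -0.31, and 1 had an unadjusted p under 0.05 in limma (*Asgr1*, -0.57, adjusted p = 0.878). Of the 6 stellate cell markers, 1 was higher and 5 lower with a median log2 fold change of -0.55, and their summed levels were 104 to 132 against 124 to 244. Control ASO replicate 4 was the highest control for 5 of these 6 and for 4 of the 6 hepatocyte markers. Without it the stellate median was -0.29, with 1 gene at an unadjusted p under 0.05 in limma, and the hepatocyte median was -0.051, with 0. With all livers limma called 0 of the 6 stellate markers and put 2 at an unadjusted p under 0.05, *Lrat* (-0.89, adjusted p = 0.849, no overlap) and *Dcn* (-0.57, adjusted p = 0.878). None of the 6 was at 0 in any liver. The part of these cells in the members' values was not tested.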

How the data were processed

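Total liver RNA of 9 mice, each a separate animal by the design text, was depleted of ribosomal RNA and sequenced as stranded single-end libraries. The authors deposited TPM for each gene, made with kallisto 0.43.1 on GRCm38 according to the submitters' notes. The study's methods describe STAR, featureCounts and DESeq2 counts, which were not used here. Of 51912 identifiers, 51633 matched GENCODE M21, and 21780 were nuclear protein-coding genes. Their TPM were rescaled to 1000000 per liver and divided by median-of-ratios factors from 12256 genes. Genes with a mean of at least 1 were fitted with limma 3.58.1 (R 4.3.3) on log2(value + 1) over all 9 livers without covariates. For *Apoc3* a permutation test (exact, two-sided) was used. Of these steps, only the limma fit was tested on simulated data. Other steps ran in Python 3.11.15 with pandas 2.3.3, numpy 2.4.6, matplotlib 3.10.9 and scipy 1.17.1.

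The members, the 3 lists of related genes and the marker lists were chosen with earlier results of these data known. The text names all 7 members, and from each list of related genes those at an unadjusted p under 0.05 or else the 2 largest changes. It also names the 2 genes most like each member, except for *Lrpap1*, for which they are not reported here. *Pdzk1*, *Sdc2*, *Sdc4*, overlapping genes and markers were named outside that rule. Alternatives covered pseudocounts, filters, scalings, limma settings, array weights, a replicate block, an exact test per gene, thresholds and each liver left out.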

Additional observations from a re-analysis of the deposited data

Results flagged for a closer look

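Single livers stood far from the rest of their group, by Dixon's criterion on rescaled TPM, in 5 of 26 groups of values checked. Chance would flag about 5% of groups if the values were normally distributed. Rescaled TPM were used here without logs, and every flagged value was the highest of its group. The related genes among them had also been named for their large differences, which a single liver can make, so the shares cannot be compared. The members gave 1 of the 5. *Vldlr* in apoC-III ASO replicate 1 was at 3.05 against 0.486 in the next treated liver. *Mmp14* in the same liver was at 9.70 against 4.27. *Sorl1* in apoC-III ASO replicate 2 was at 26.1 against 0.833, and in control ASO replicate 4 at 114 against 2.63 in the next control. *Lrp8* in control ASO replicate 4 was at 9.93 against 0.675. Thus 2 of the 5 values came from the control library with the lowest protein-coding share and 2 from the treated library that was highest for most members.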

How the results depend on the processing

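No member was called in any alternative, and *Lrp1*, *Scarb1* and *Lsr* kept their direction in all 23 in which each was tested. *Apoc3* was lower in all 23 and called in 20. Over all genes, 0 were called higher and 2 lower as reported. There were 5 higher and 6 lower in TPM as deposited, 1 and 1 in TPM with median-of-ratios factors, and 1 lower without a filter on low values, after rescaling without the factors, or in eBayes without trend. There were 0 lower by the exact permutation test, which could call none because its smallest adjusted p was 0.868, and 622 genes had an unadjusted p under 0.05 there against 666 in limma. There were also 0 lower in TPM as deposited without a filter (limma put 475 genes under an unadjusted p of 0.05), an alternative chosen after seeing the data. With 1 liver left out, 1 to 3 genes were called lower. The lone reversals by scaling or weighting were *Sdc1* (0.0310) and *Lrpap1* (0.353) without the factors, *Vldlr* (0.00707) in TPM as deposited without a filter, and *Sorl1* (0.0600) with array weights. Leaving out 1 liver gave *Sort1* -0.00986 to 0.412 (reversed without control ASO replicate 2), *Lrpap1* -0.216 to 0.0645 (reversed without apoC-III ASO replicate 2 or control ASO replicate 1), and *Sorl1* -1.98 to 0.271 (reversed without control ASO replicate 4). Apart from the removal of a liver itself, the cause was not tested. With the replicate block, 1 gene was called higher, 2 lower and 0 members. Whether the numbers pair the livers cannot be settled from 4 pairs. Correlations between same-numbered livers were 0.0260 to 0.191 and over 0.1 in 2 of 4 pairs. Those between livers of differing number ran from -0.207 to 0.178, and 2 of 4 controls correlated best with their own number. Under the block the log2 fold change of *Scarb1* was 0.50 (unadjusted p = 0.0424, adjusted p = 0.616 in limma). TPM keep no depth, so what limits the low values of *Vldlr* and *Sort1* could not be measured.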
